A study of Mus musculus with 8 samples.

Results

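*Nr4a1*, *Nr4a2*, *Nr4a3*, *Npas4*, *Arc* and *Homer1* are genes that neurons switch on within minutes of being active, and they are described here across the cell types of the mouse iris. They are 6 of the 22873 genes counted in each library, found by their symbols. The choice of these 6 genes drew on earlier results of the same data, in particular on irises dilated with drugs, so their differences between dilated and untreated irises are given as a description. The number of them past the threshold of the fit over all genes is set beside the share of all genes past it, and no p of a single gene is given for that contrast.

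RNA was sequenced from single nuclei of the iris with some adjoining ciliary body. The mice were female, albino and between 6 and 8 weeks of age, and 5 or 6 irises were pooled per library. The 3 untreated libraries were compared with 2 libraries of dilated irises and 3 libraries of constricted irises. Dilated irises came from mice that received drops of 5% phenylephrine, an alpha-adrenergic agonist, and 1% cyclopentolate, a muscarinic antagonist, every hour for 6 h in the dark. Constricted irises came from mice that received 5% pilocarpine, a muscarinic agonist, every hour for 6 h in the light, and eyes of both treated groups were taken 30 min after the last drop. Because each drug went with 1 state of lighting, the effects of drug, light and pupil size cannot be told apart.

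The libraries held 1274 to 7321 nuclei and 5189437 to 25136427 unique molecular identifiers (UMIs, each standing for 1 captured RNA molecule), and 10 cell types were assigned by the authors. Of 28 pairs of a marker gene and a type, for 9 of these types, 21 were highest and 25 were highest or second highest in that type. The markers are those of the study and were partly chosen on these samples, so that this match is partly built in. Untreated replicate 1, with 1479 nuclei, shared 63 cell barcodes with dilated replicate 1, and 59 of them carried the same cell type label in both, whereas the other 27 pairs of libraries shared 0 to 18 barcodes. In untreated replicate 1, the 6 dilator muscle nuclei with a barcode found in another library held 2 UMIs of *Nr4a1* and 0 of the other genes described here. Without these nuclei the level of *Nr4a1* in its dilator muscle was 13.5 CPM in place of 14.3, where CPM is the UMIs of a gene per 1000000 UMIs.

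In neurons, calcium entry activates kinases that phosphorylate the transcription factor CREB, and genes of this kind are transcribed before any new protein is made. *Nr4a1*, *Nr4a2* and *Nr4a3* encode orphan nuclear receptors, transcription factors without a known physiological ligand, and they are also induced in muscle, blood and hormone-responsive cells. *Npas4* encodes a transcription factor of the bHLH-PAS class that is best known for its response to calcium in neurons. *Arc* encodes a protein that controls glutamate receptor trafficking at synapses, and *Homer1* encodes a scaffold protein that links metabotropic glutamate receptors to intracellular calcium channels and has a short activity-induced form.

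By GENCODE vM21 on mm10, *Nr4a1* lies at chr15:101254269-101274795 on the plus strand and *Nr4a2* at chr2:57106830-57124003 on the minus strand. *Nr4a3* lies at chr4:48045153-48086447 on the plus strand and *Npas4* at chr19:4984355-4990316 on the minus strand. *Arc* lies at chr15:74669083-74672570 on the minus strand. *Homer1* lies at chr13:93299635-93405129 on the plus strand and is the longest of them with 105495 bases. It overlaps 2 tentative transcript models on the same strand, *Gm47075* and *Gm47088*, so that its UMIs may include reads of these models. Reads in introns were counted, so that long genes can collect more UMIs, and levels are therefore compared below between cell types and conditions but not between genes.

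CREB binds the motif TGACGTCA, and many of its sites hold only the shorter TGACG on 1 strand. The 250 bases before the transcription start given by RefSeq (GRCm38.p6) were searched on both strands for 5 of the 6 genes, since *Arc* had no entry in the table used. TGACG was found at 4 positions in the windows of *Nr4a1*, *Nr4a2* and *Nr4a3*, at 2 in that of *Npas4* and at 3 in the first window of *Homer1*, but at 0 positions in the second *Homer1* window. Of 32841 such windows in 27018 genes, 17.8% held at least 1 TGACG, 3.90% at least 2 and 0.688% at least 3. The full TGACGTCA was found in 0 of the windows of these genes and in 1.55% of all windows. TGANTCA, the AP-1 site, and the serum response element core known as the CArG box were likewise found in 0 of them, against 6.75% and 1.47% of all windows. GCGNGGGCG, the motif of EGR factors, was present at 1 position each in *Nr4a1* and *Nr4a2* and in 4.70% of all windows. These are matches of letters and not measured sites. The windows are printed 5′ to 3′ on the strand of the gene to show how closely these letters are spaced, with TGACG and its reverse complement CGTCA in capitals. Bases that GENCODE places in an untranslated exon are left out, which leaves 98 bases with 3 of the 4 matches for *Nr4a3*. For *Npas4*, where the whole window is in such an exon, only the 30 bases around both matches are given.
Nr4a1, chr15:101266596-101266845, plus strand: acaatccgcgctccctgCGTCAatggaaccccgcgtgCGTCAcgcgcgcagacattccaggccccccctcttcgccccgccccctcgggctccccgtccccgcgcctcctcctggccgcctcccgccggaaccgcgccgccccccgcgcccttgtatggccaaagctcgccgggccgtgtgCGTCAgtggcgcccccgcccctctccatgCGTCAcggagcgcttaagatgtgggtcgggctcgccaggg
Nr4a2, chr2:57124004-57124253, minus strand: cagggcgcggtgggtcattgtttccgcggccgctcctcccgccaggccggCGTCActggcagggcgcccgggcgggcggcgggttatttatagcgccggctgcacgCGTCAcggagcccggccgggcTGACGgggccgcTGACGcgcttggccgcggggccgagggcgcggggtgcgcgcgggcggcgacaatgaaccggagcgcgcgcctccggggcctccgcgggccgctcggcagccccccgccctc
Nr4a3, chr4:48045055-48045152, plus strand: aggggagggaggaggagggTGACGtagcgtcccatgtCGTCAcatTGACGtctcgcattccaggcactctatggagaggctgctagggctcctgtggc
Npas4, chr19:4990129-4990158, minus strand: ccgttcgaCGTCAcgggaTGACGtcggaag
Homer1, chr13:93303507-93303756, plus strand: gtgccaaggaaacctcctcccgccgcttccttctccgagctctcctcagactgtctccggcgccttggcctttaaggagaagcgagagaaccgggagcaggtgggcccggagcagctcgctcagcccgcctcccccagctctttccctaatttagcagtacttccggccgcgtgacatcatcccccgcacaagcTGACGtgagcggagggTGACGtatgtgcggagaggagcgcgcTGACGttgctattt

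In untreated irises the 6 genes had different cell type patterns. Levels are CPM of the UMIs summed over the nuclei of a cell type in a library, given as mean ± SD (n = 3 libraries), and the order of cell types is described without a test because the types were defined from the same counts. *Nr4a1* was highest in the iris pigment epithelium (iris PE) at 36.1 ± 9.60 CPM, followed by endothelial cells at 29.6 ± 25.1, sphincter 1 at 16.3 ± 7.14 and dilator muscle at 11.3 ± 2.67, and each of these types overlapped with the next. The endothelial level rests on 8 UMIs, and without nuclei whose barcode occurs in another library it was 17.6 CPM. *Nr4a2* was highest in stroma 1 at 21.2 ± 15.8 CPM, with endothelial cells at 18.9 ± 17.4 and stroma 2 at 11.5 ± 1.87. This order rests on untreated replicate 1, since without it the means were 12 CPM in stroma 1, 8.92 in endothelial cells and 11.8 in stroma 2. All untreated libraries had more *Nr4a2* in stroma 2 than any had in sphincter 1, the next type, at 3.40 ± 2.96 CPM. *Nr4a3* stood out by 1 cell type: it was at 57.4 ± 11.1 CPM in stroma 1, the stromal cells that express *Sox10* and the pigment genes *Dct* and *Tyr*, and at 6.46 ± 11.2 CPM in endothelial cells, the next type, without overlap.

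*Npas4* and *Homer1* were instead highest in the sphincter muscle, which closes the pupil. *Npas4* was at 43.0, 12.8 and 17.2 CPM in the untreated sphincter 1 libraries, a mean of 24.3 ± 16.3 (15 without untreated replicate 1), and at 6.42 ± 2.54 CPM in sphincter 2, the sphincter nuclei that also carry the alpha-adrenergic receptor gene *Adra1a*. These levels rest on 35 and 7 UMIs. In stroma 1, *Npas4* had 0 UMIs in all 8 libraries. *Homer1* was at 117 ± 18.5 CPM in sphincter 1, at 88.5 ± 18.6 in sphincter 2, at 56.5 ± 30.1 in leukocytes and at 39.3 ± 18.1 in iris PE, and each type overlapped with the next. *Arc* was all but undetected, with 7 UMIs in the whole series, of which 4 were in untreated, 0 in constricted and 3 in dilated libraries. At the depth of the constricted libraries, 0 UMIs allow up to 0.106 CPM over all cell types (3 UMIs of 28208859, counting error only). *Arc* is therefore not described further by cell type.

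**Figure D1:**
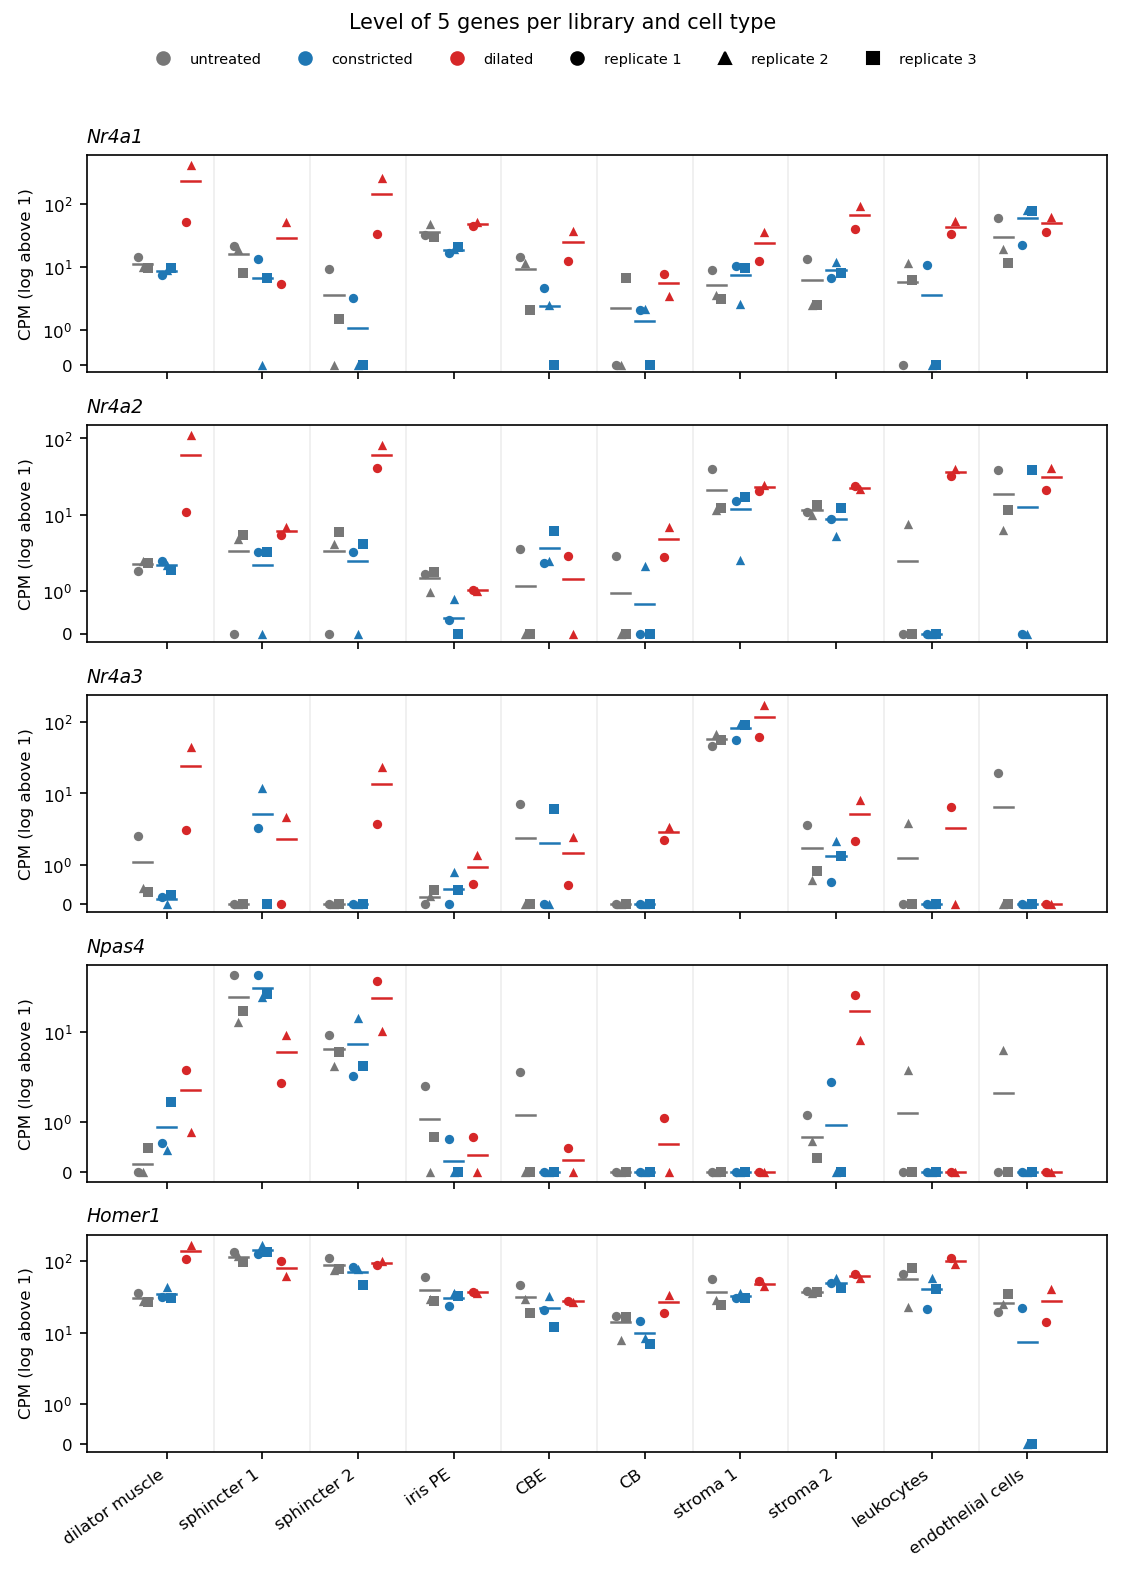
Level of each gene in CPM (log axis above 1, linear below) in the 10 cell types, with 1 point per library and the 3 conditions in different colours. *Nr4a3* in stroma 1 and *Npas4* in sphincter 1 stand above the other cell types in untreated irises, and in dilator muscle the 2 dilated libraries lie above the 6 others for *Nr4a1*, *Nr4a2*, *Nr4a3* and *Homer1*.

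In the dilator muscle, the radial smooth muscle that opens the pupil, all 3 NR4A genes were higher in dilated irises. *Nr4a1* was at 14.3, 9.99 and 9.49 CPM in untreated, at 7.36, 8.86 and 9.71 in constricted and at 50.4 and 400 in dilated libraries. Both dilated libraries were above the 6 others, which overlapped with each other. The fitted difference between dilated and untreated irises was 4.64 ± 0.66 on the log2 scale (edgeR estimate ± SE), and the ratio of the means was 20.0. Each SE was worked out from the estimate and its test statistic, with a spread estimated over all 8 libraries. It does not give the spread between the 2 dilated libraries, which was wider for the NR4A genes here and is described below. *Nr4a2* was at 1.87 to 2.53 CPM in all untreated and constricted libraries and at 11.1 and 110 CPM in the dilated ones, with a fitted difference of 4.86 ± 0.79. The spread of *Nr4a2* among the 6 libraries that were not dilated was thus small beside its distance from either dilated library.

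*Nr4a3* was at 2.49, 0.422 and 0.316 CPM in untreated, at 0.194, 0 and 0.237 in constricted and at 3.06 and 44.9 in dilated dilator muscle, with a fitted difference of 5.38 ± 1.06. The lower dilated library was only slightly above untreated replicate 1, and dilated replicate 2 was far above all the others. *Homer1* was at 36.2, 27.6 and 27.4 CPM in untreated, at 31.4, 43.9 and 31.3 in constricted and at 109 and 170 in dilated dilator muscle. This made a fitted difference of 2.44 ± 0.24, and in dilated irises the dilator muscle had the highest mean level of *Homer1* of all cell types, at 139 ± 43.4 CPM (SD, n = 2). *Npas4* stayed low there, at 0, 0 and 0.475 CPM in untreated, 0.443 to 1.66 in constricted and 3.75 and 0.802 in dilated libraries. The dilated values rest on 38 and 4 UMIs, and the lower one lay within the constricted range.

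Dilated irises also had higher levels in sphincter 2 and stroma 2. In sphincter 2, *Nr4a1* was at 9.16, 0 and 1.48 CPM in untreated and at 33.3 and 252 CPM in dilated libraries. The untreated libraries held only 2 UMIs of *Nr4a1* there against 83 in the dilated ones. The ratio of pooled levels was 93.1 with a 95% interval of 25.0 to 782 (exact, counting error only), and the ratio of the means was 40.2. In dilator muscle the ratio of pooled levels of *Nr4a1* was 16.2. *Nr4a2* was at 0, 4.16 and 5.93 CPM in untreated and at 40.7 and 81.8 CPM in dilated sphincter 2, with a fitted difference of 3.69 ± 0.70. *Nr4a3* had 0 UMIs in untreated and constricted sphincter 2 and 8 in dilated sphincter 2, with 7 in replicate 2 and 1 in replicate 1. Against a floor of 3 UMIs over the untreated libraries, the pooled dilated level was 5.98-fold higher. This value leaves out the counting error of the 8 UMIs and is therefore no lower bound. *Npas4* was at 9.16, 4.16 and 5.93 CPM in untreated, at 3.25 to 14.4 in constricted and at 37.0 and 10.2 in dilated sphincter 2. The dilated values rest on 10 and 3 UMIs, and the lower one lay within the constricted range. The dilated libraries held 71 and 86 sphincter 2 nuclei, few beside the 2567 and 1306 of dilator muscle.

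In stroma 2, the stromal cells that express *Pdgfra* and *Tfap2b*, dilated irises had a higher mean of *Npas4* than in any other cell type but sphincter 2. The libraries overlapped with those of sphincter 1, which in dilated replicate 2 was at 9.23 CPM on 4 UMIs. *Npas4* was at 1.21, 0.626 and 0.283 CPM in untreated, at 2.80, 0 and 0 in constricted and at 25.9 and 8.18 in dilated stroma 2, with a fitted difference of 4.92 ± 0.80. Its 2 dilated libraries were above all others and held 96 and 14 UMIs. *Nr4a1* was at 13.3, 2.50 and 2.55 CPM in untreated and at 40.2 and 92.9 CPM in dilated stroma 2, with a fitted difference of 4.04 ± 0.53. *Nr4a2* and *Homer1* were also higher in both dilated than in all untreated stroma 2 libraries, but by less, with fitted differences of 0.99 ± 0.30 and 0.81 ± 0.19. *Homer1* was at 67.6 and 59.0 CPM in dilated and at 42.6 to 59.2 CPM in constricted stroma 2, which overlapped.

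In the cell types with the highest untreated levels, the log2 differences of *Nr4a1*, *Nr4a3* and *Npas4* were smaller or of the other sign. This depends on the scale. The mean of *Nr4a3* was 57.4 CPM in untreated and 118 in dilated stroma 1, a larger step in CPM than from 1.08 to 24.0 in dilator muscle. *Nr4a1* in iris PE was at 31.8, 47.1 and 29.5 CPM in untreated and at 43.8 and 51.4 CPM in dilated libraries, which overlapped, with a fitted difference of 0.40 ± 0.22. *Nr4a3* in stroma 1 was at 46.6, 68.8 and 56.7 CPM in untreated, at 56.6, 95.6 and 92.4 in constricted and at 62.6 and 173 in dilated libraries. Of the dilated libraries only replicate 2 lay above all untreated ones, and constricted replicates 2 and 3 did as well. The fitted difference of dilated from untreated was 1.00 ± 0.33, and it was 1.63 with dilated replicate 2 alone and 0.05 with replicate 1 alone. It did not pass the threshold described below, but did so with a replicate or a series block and without a filter on low counts. *Npas4* in sphincter 1 was at 2.73 and 9.23 CPM in dilated libraries, below the lowest untreated value of 12.8 CPM, and these 2 values rest on 1 and 4 UMIs, with a fitted difference of -1.55 ± 0.76. *Homer1* in sphincter 1 was at 134, 118 and 97.5 CPM in untreated and at 101 and 62.3 CPM in dilated libraries, which overlapped. The smaller cell types gave few UMIs. In leukocytes *Nr4a2* was at 0, 7.58 and 0 CPM in untreated and at 32.6 and 39.6 CPM in dilated libraries, which rests on 2 and 8 UMIs. *Nr4a1* was at 0, 11.4 and 6.19 CPM in untreated and at 32.6 and 52.8 CPM in dilated leukocytes, on 4 and 9 UMIs.

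**Figure D2:**
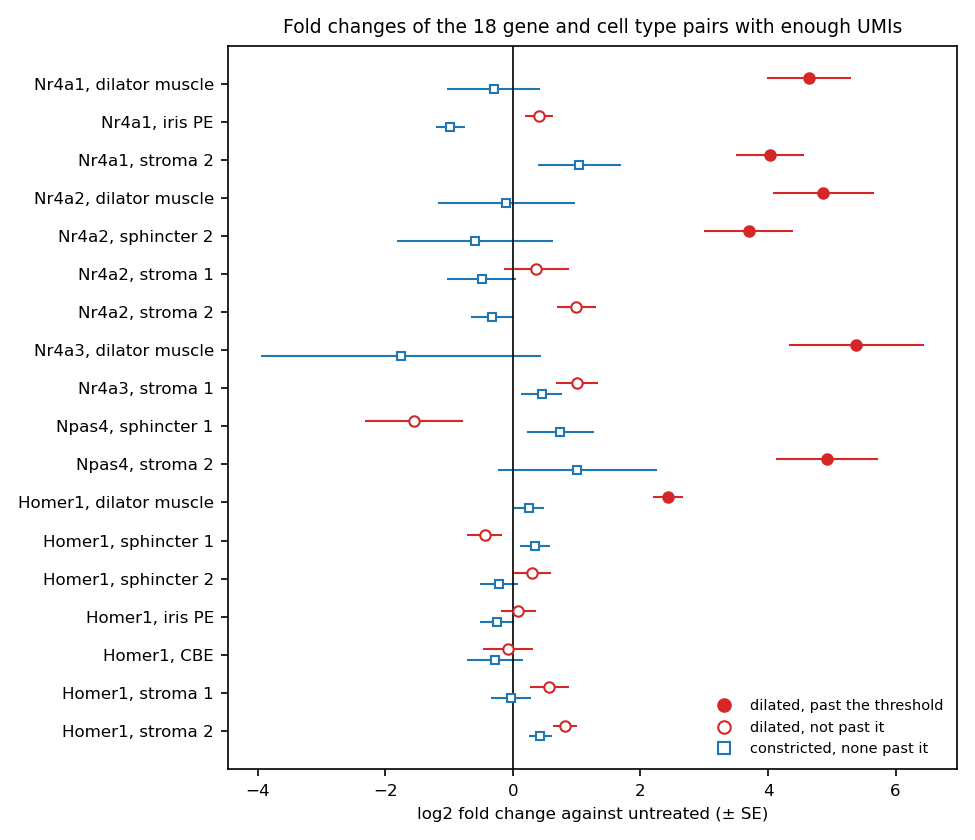
Fitted log2 fold change against untreated irises (edgeR estimate, bars ± SE) for each gene and cell type with enough UMIs to be fitted, for dilated and for constricted irises. The SE rests on a spread estimated over all 8 libraries and does not give the spread between the 2 dilated ones. The 7 called pairs of dilated irises lie between 2.44 and 5.38, and all values of constricted irises lie between -1.75 and 1.04.

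After the filter on low counts, 18 of the 60 pairs of a gene and a cell type could be fitted (3 for *Nr4a1*, 4 for *Nr4a2*, 2 for *Nr4a3*, 2 for *Npas4*, 0 for *Arc* and 7 for *Homer1*), and 42 could not. A pair was called when its adjusted p was below 0.05 and its log2 fold change exceeded 0.6 in size. Of the 18 pairs, 7 were called higher in dilated irises: *Nr4a1*, *Nr4a2*, *Nr4a3* and *Homer1* in dilator muscle, *Nr4a2* in sphincter 2, and *Nr4a1* and *Npas4* in stroma 2. Over all genes fitted, the share called higher was 7.2% in dilator muscle, 1.46% in sphincter 2, 1.35% in stroma 2, 0.786% in stroma 1, 0.633% in sphincter 1, 0.453% in iris PE and 0.0122% in the ciliary body epithelium (CBE), and 6.14% were called lower in dilator muscle. Nothing is read from the count of 7, since the genes were selected with this contrast known and a pair can pass the filter through its dilated libraries alone. *Npas4* in sphincter 2 and dilator muscle and *Nr4a1* in sphincter 2, stroma 1 and leukocytes were too low to be fitted.

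The 2 dilated libraries differed from each other, and they did so in a gene-specific way. In dilator muscle *Nr4a1* was 7.94-fold higher in replicate 2 than in replicate 1 (95% interval 7.20 to 8.76, exact, counting error only), *Nr4a2* was 9.99-fold higher (8.14 to 12.3) and *Nr4a3* was 14.7-fold higher (10.0 to 22.1). *Homer1* was 1.57-fold higher (1.43 to 1.71), and *Npas4* went the other way at a ratio of 0.214 (0.0554 to 0.593). The median ratio over all 15152 genes with at least 20 UMIs in both libraries together was 0.888. Above 4-fold were 0.185% of these genes, among them the 3 NR4A genes, and below 0.25-fold were 0.957%, among them *Npas4*.

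In sphincter 2 and stroma 2, *Nr4a1* was likewise higher in replicate 2 and *Npas4* again had ratios below 1, whereas *Nr4a2* was less uniform. In sphincter 2 the ratio of replicate 2 to replicate 1 was 7.56 for *Nr4a1* (3.78 to 17.2) and 0.276 for *Npas4* (0.0488 to 1.07), an interval that includes 1. *Nr4a2* there was at 2.01 (0.946 to 4.54), which includes 1 as well. In stroma 2 the ratio was 2.31 for *Nr4a1* (1.84 to 2.91), 3.79 for *Nr4a3* (1.48 to 10.4), 0.911 for *Nr4a2* (0.603 to 1.35) and 0.316 for *Npas4* (0.167 to 0.556), so that *Nr4a2* was near the median of all genes at 0.923. For *Nr4a1* in iris PE, where its level in untreated irises was high, the ratio was 1.17 (0.951 to 1.44). In sphincter 1, *Npas4* had 4 and 1 UMIs, too few to give a direction. With 1 library on each side these intervals compare libraries and not conditions, and the cause of the difference was not tested.

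**Figure D3:**
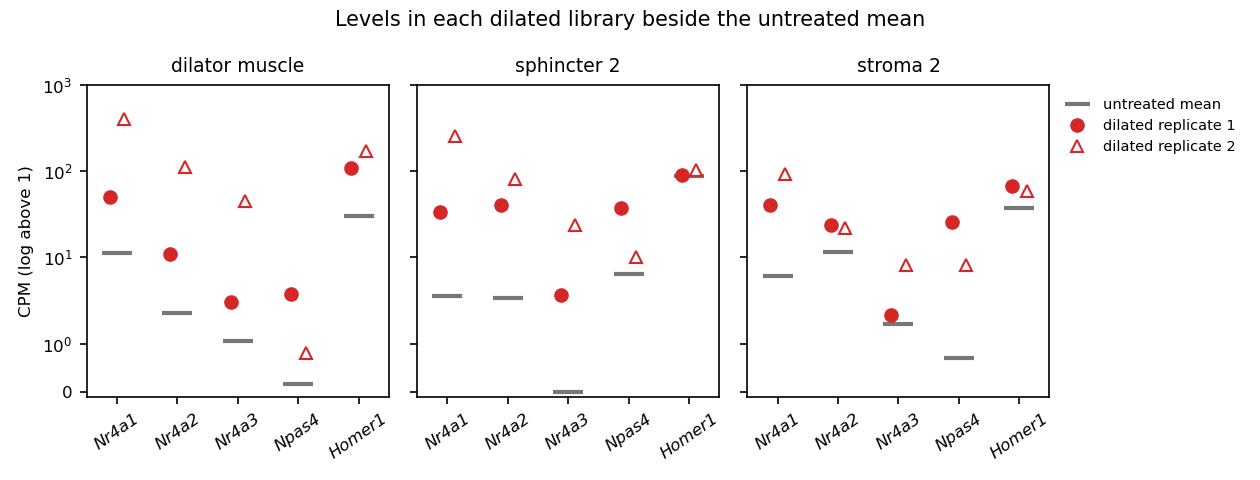
Levels in CPM (log axis above 1) of 5 genes in dilator muscle, sphincter 2 and stroma 2, with the untreated mean as a grey bar, dilated replicate 1 as filled circles and dilated replicate 2 as open triangles. Replicate 2 lies above replicate 1 for *Nr4a1* and *Nr4a3* in all 3 cell types and below it for *Npas4* in all 3. In sphincter 2, *Nr4a3* had 7 UMIs in replicate 2 and 1 in replicate 1, and *Npas4* had 3 and 10. The 95% intervals of both ratios there include 1.

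Because of this spread, the sizes of the differences from untreated irises depended on which dilated library was used. With dilated replicate 1 alone, the log2 differences in dilator muscle were 2.34 for *Nr4a1*, 2.31 for *Nr4a2*, 2.24 for *Nr4a3* and 1.99 for *Homer1*. With dilated replicate 2 alone they were 5.49, 5.77, 6.34 and 2.78 in the same order. For *Npas4* in stroma 2 the larger value came from replicate 1, at 5.43 against 3.84. The library numbers in the sample titles fall into 3 series, and the first and the last of them hold both untreated and dilated libraries. Within the first series, on the scale of log2(1 + CPM), dilated exceeded untreated dilator muscle by 1.75 for *Nr4a1*, 2.07 for *Nr4a2*, 0.22 for *Nr4a3* and 1.56 for *Homer1*. Within the last series these differences were 5.22, 5.01, 5.07 and 2.59. All of them had the same sign, and that of *Nr4a3* was near 0 in the first series.

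In dilated dilator muscle a larger share of nuclei had *Nr4a1* and *Homer1* than in untreated dilator muscle. At least 1 UMI of *Nr4a1* was found in 14.1% of 2567 nuclei of dilated replicate 1 and in 54.1% of 1306 nuclei of dilated replicate 2, against 5.21%, 3.17% and 2.99% in the untreated libraries. After each nucleus was thinned to 1000 UMIs, to remove differences in depth, the shares were 4.33% and 26.3% in dilated and 0.750%, 1.16% and 1.18% in untreated libraries. The most *Nr4a1* UMIs in 1 dilator nucleus were 32 in a dilated library and 2 in an untreated one. For *Nr4a2* the shares were 4.01% and 15.6% in the dilated libraries (1.25% and 6.97% thinned), and for *Nr4a3* 0.974% and 9.19% (0.234% and 4.06% thinned), which in replicate 1 was 25 of the 2567 nuclei. *Homer1* differed less between the 2 dilated libraries, with 25.4% and 29.1% (9.47% and 11.0% thinned), against 12.2%, 8.32% and 8.16% in untreated ones (2.58% to 4.5% thinned).

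Free RNA was not measured, and how much it added to these shares was not tested. Shares in iris PE of the same libraries are given beside those of dilator muscle. *Nr4a2* was found in 0.338% and 0.312% of iris PE nuclei of the 2 dilated libraries, and *Nr4a3* in 0.169% and 0.416%, where the median nucleus had 3139 and 3006 UMIs, against 3800 and 3660 in dilator muscle. Before thinning, the shares of dilator nuclei with *Nr4a2* or *Nr4a3* were above these in both dilated libraries. *Nr4a1* and *Homer1* are themselves expressed in untreated iris PE, which is therefore no type that lacks them. *Nr4a1* was in 9.17% and 11.0% of the iris PE nuclei of the dilated libraries (4.03% and 4.45% thinned) and *Homer1* in 10.2% and 9.78% (3.30% and 3.18% thinned). The thinned share of *Nr4a1* in dilator muscle of replicate 1, at 4.33%, was close to that of iris PE. In stroma 2, *Npas4* was found in 6.34% and 1.82% of nuclei of the dilated libraries (2.97% and 0.713% thinned) and in 0.361%, 0.152% and 0.0692% of the untreated ones. In stroma 1 it was in 0 of 252 and 0 of 233 nuclei of the same dilated libraries.

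**Figure D4:**
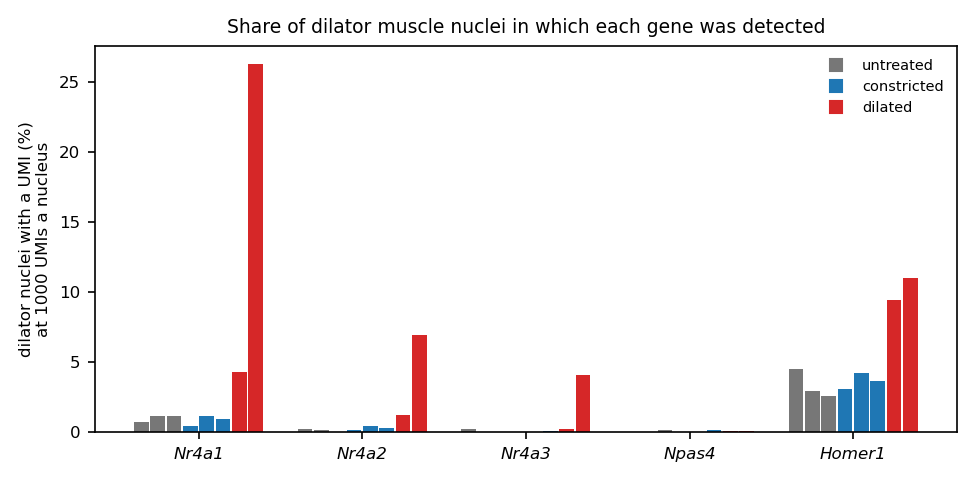
Percent of dilator muscle nuclei with at least 1 UMI of each gene in each library, after thinning every nucleus to 1000 UMIs. The dilated libraries reach 4.33% and 26.3% for *Nr4a1* and 9.47% and 11.0% for *Homer1*, and the untreated and constricted libraries stay below 5% for every gene.

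In dilated replicate 2, dilator nuclei with 1 of the NR4A genes had the others and *Homer1* more often than those without. Of 343 nuclei with *Nr4a1* after thinning, 14.3% also had *Nr4a2*, against 4.37% of the 962 without *Nr4a1*. *Nr4a3* was in 8.45% and 2.49% of the same groups of nuclei, and *Homer1* in 15.2% and 9.56%. Of 53 nuclei with *Nr4a3*, 54.7% had *Nr4a1* and 26.4% had *Nr4a2*, against 25.1% and 6.15% of the others. *Npas4* was in 0 of the 343 nuclei with *Nr4a1* and in 0.104% of those without, too rare for the 2 shares to be compared. In dilated replicate 1, where 111 nuclei had *Nr4a1*, the shares with *Nr4a2* were 1.80% and 1.22%, close to each other, and those with *Homer1* were 16.2% and 9.17%. There *Nr4a3* was in 0 of the 111 nuclei with *Nr4a1* and in 0 of the 32 with *Nr4a2*. It was in only 0.244% and 0.237% of the nuclei without these genes, so that 0 among so few nuclei shows nothing. *Homer1* was in 9.38% of the nuclei with *Nr4a2* and in 9.47% of those without. The nuclei of a library are not replicates, so these shares were not tested.

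In constricted irises none of the 6 genes passed the threshold in any cell type where it could be fitted. This comparison asked whether constriction changed the same genes, and it is the contrast that the selection of the genes is least likely to have used. The paper presumes that the untreated pupil is already fairly small, so that pilocarpine narrows it only a little more. Of the 18 fitted pairs, 2 had an unadjusted p below 0.05 in edgeR's quasi-likelihood test and 0 passed after adjustment over all genes of a cell type. The filter used all 8 libraries, so a pair could enter through its dilated libraries alone. Constricted and untreated libraries held only 2 and 9 UMIs of *Nr4a3* in dilator muscle and 2 and 6 of *Nr4a2* in sphincter 2. For *Npas4* in stroma 2 they held 5 and 4. With so few UMIs, the lack of a call shows little about constriction. Over all genes and cell types, 0.0118% of 85092 pairs were called in either direction. DESeq2, which fitted 52 pairs, had 1 with an unadjusted p below 0.05 and 0 calls, with a lowest adjusted p of 0.492.

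*Nr4a1* in iris PE had the lowest p of the fitted pairs. It was at 31.8, 47.1 and 29.5 CPM in untreated and at 16.4, 18.9 and 20.6 CPM in constricted libraries, so that all constricted libraries lay below all untreated ones. The log2 fold change was -0.98 ± 0.23 with an adjusted p of 0.785 (edgeR, Benjamini-Hochberg). Within the first series of library numbers the difference in log2(1 + CPM) was -0.91, and within the last it was -0.87. *Homer1* in stroma 2 was at 38.7, 35.7 and 37.4 CPM in untreated and at 49.3, 59.2 and 42.6 CPM in constricted libraries, all above the untreated ones. Its log2 fold change was 0.43 ± 0.18 with an adjusted p of 0.909 (edgeR). In dilator muscle, constricted and untreated libraries differed by -0.30 ± 0.72 for *Nr4a1*, -0.10 ± 1.07 for *Nr4a2* and 0.25 ± 0.23 for *Homer1* on the log2 scale, and none of these passed the threshold. *Nr4a3* there differed by -1.75 ± 2.19, and its constricted libraries, at 0 to 0.237 CPM and 2 UMIs in all, lay below the untreated ones at 0.316 to 2.49 CPM and 9 UMIs, without passing the threshold. All 8 libraries shared 1 estimate of the spread, to which the 2 dilated libraries contributed. The libraries are pools of irises, and p-values measure the spread between these pools.

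The wider immediate early response was described with 5 lists of genes related to the members, which were chosen with earlier results of these data known, so that their counts are a description. In dilator muscle of dilated irises, 17 of 20 fitted first-wave transcription factor genes were called higher, beside 7.2% of all genes, and 0 lower, with a median log2 fold change of 2.59 against 0.02 over all genes. *Egr1*, a zinc finger factor, was at 2.21 to 12.5 CPM in untreated and at 83.9 and 255 CPM in dilated libraries, a difference of 5.65 ± 0.60. *Btg2*, an antiproliferative gene, changed by 5.50 ± 0.67, *Fos*, which encodes a part of AP-1, by 5.47 ± 0.96, *Atf3*, a stress-induced factor, by 4.80 ± 0.82, and *Myc* by 4.61 ± 0.80. Fewer first-wave genes were called higher elsewhere, with 7 of 17 in iris PE, 3 of 6 in sphincter 1, 3 of 9 in sphincter 2, 3 of 7 in the ciliary body (CB), 2 of 7 in stroma 1, 2 of 16 in stroma 2, 0 of 6 in CBE, 0 of 3 in leukocytes and 0 of 1 in endothelial cells, and 0 of them were called lower. Over all genes fitted in CB, 0.0665% were called higher. The median log2 fold change of the list in these types ran from 0.88 in CBE to 1.92 in CB, and was -0.005 in endothelial cells. Over all genes it was between -0.01 and 0.01 there. The counts also depend on depth, with 15119653 UMIs in dilated dilator muscle and, for example, 563511 in dilated sphincter 2. The differences between cell types were not tested.

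The activity-regulated effector genes had a median log2 fold change of 0.80 in dilated dilator muscle, against 0.02 over all genes. There 12 of 18 were called higher, beside 7.2% of all genes, and 0 lower. Among them the dual specificity phosphatase genes *Dusp5*, *Dusp6* and *Dusp1*, which turn off MAP kinases, changed by 5.05 ± 1.00, 3.60 ± 0.74 and 2.82 ± 0.53. The kinase genes *Plk3* and *Sik1* changed by 5.04 ± 0.78 and 3.82 ± 0.55. Of these, *Dusp5*, *Dusp6* and *Plk3* stayed below 10 CPM in every library. In dilated stroma 2 the median of the effector genes was 0.78, close to that of dilator muscle. There 5 of 20 were called higher, beside 1.35% of all genes, and 1 lower. In the other types where any could be fitted, 0 or 1 were called higher, with medians from 0.02 in iris PE to 0.51 in sphincter 2.

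In dilated dilator muscle, 2 of 24 fitted genes of calcium, CREB, MEF2 and SRF signalling were called higher. These were *Srf* at 1.03 ± 0.26 and *Mef2d* at 0.79 ± 0.17, and the median log2 fold change was 0.10. With 7.2% of all genes called higher there, this share is near the background and no result about the list in dilator muscle. In dilated stroma 2, 2 of 24 were called higher as well and 0 lower, beside 1.35% of all genes called higher. The median of the list there was -0.04, against 0.01 over all genes, and this difference in shares was not tested. The binding partners and paralogs include the RXR partners of NR4A receptors and the glutamate receptors bound by Homer proteins. Of 16 fitted in dilator muscle, *Arnt2* was called higher at 0.99 ± 0.24 and *Grm5* lower at -1.01 ± 0.31, with a median of -0.11. *Arnt2* encodes a partner of NPAS4 and *Grm5* a receptor bound by HOMER1. Over all genes fitted in dilator muscle, 7.2% were called higher and 6.14% lower. The calls of *Arnt2* and *Grm5* are thus near the background and no result about the list.

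Markers of neurons were low in dilator muscle. Of 15 listed, 12 were measured and 3 could be fitted, and 0 of them were called. Their summed level was 19.6 to 44.3 CPM in untreated, 21.3 to 33.1 in constricted and 44.2 and 32.9 CPM in dilated dilator muscle, which overlapped. In dilated libraries 0 of the 12 markers were at 0, and in the others 2 to 4 were. Some of these detections rest on 1 or 2 UMIs, such as those of *Slc17a6* and *Slc17a7* in each dilated library. They also depend on depth, with 15119653 dilator UMIs in 2 dilated and 15030870 in 3 untreated libraries. The summed level of these markers was 37.6 to 81.3 CPM in untreated and 38.2 and 39.2 CPM in dilated sphincter 1, and 44.7 to 89.4 and 57.4 and 50.8 CPM in stroma 2.

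The difference between the 2 dilated libraries was shared by some of these genes. Of 22 first-wave genes with at least 20 UMIs in dilator muscle, 6 were more than 4-fold higher in replicate 2, beside 0.185% of all such genes. Among them were *Fos* at 12.3-fold, *Btg2* at 7.32-fold and *Junb* at 4.69-fold. So were 3 of 20 effector genes (*Sik1*, *Per1* and *Arl4d*), 0 of 24 upstream regulators, 0 of 16 partners and 1 of 5 neuron markers. The median ratio of the first-wave list was 2.22, that of the effector genes 1.62 and that of the upstream regulators 0.913. *Egr1* was 3.04-fold higher and *Klf10*, at a ratio of 0.889, matched the median of all genes.

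In constricted irises 0 of 479 pairs of a list gene and a cell type were called (92 of first-wave genes, 101 of effectors, 179 of upstream regulators, 96 of partners and 11 of neuron markers), and 33 had an unadjusted p below 0.05. These pairs too could pass the filter through their dilated libraries alone. The lowest adjusted p was 0.122 by edgeR, for *Junb* in CBE. DESeq2 called 1 pair, *Junb* in iris PE, at a log2 fold change of -1.79 and an adjusted p of 4.71e-06. In the edgeR fit *Junb* in iris PE was at -1.83 ± 0.29 with an adjusted p of 0.155. *Junb*, which encodes a part of AP-1, was singled out after its values were seen. The median log2 fold change of the first-wave list with constriction was -0.48 in iris PE, -0.47 in CBE and -0.32 in CB. It lay between -0.09 and 0.35 in the other types, and over all genes between -0.01 and 0.04. These medians were not tested.

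Finally, the pattern of each gene over the 30 means of a condition and a cell type was compared with the 13095 genes of at least 5 CPM, by Pearson correlation of log2(1 + CPM). The means share libraries and depth within a condition, so these values are a description. *Nr4a1* was most like *Ptma* (0.775), *Aqp1* (0.725), a water channel gene, and *Plat* (0.707), which encodes tissue plasminogen activator. *Nr4a2* was most like the cell cycle inhibitor gene *Cdkn1a* (0.747), the integrin gene *Itga5* (0.744) and *Usp53* (0.736). *Nr4a3* was most like *Chsy3* (0.842), *Prb1* (0.828) and *Ago2* (0.825), all of which were highest in stroma 1. *Npas4*, itself below the minimum at a mean of 4.26 CPM, was most like *Csrp2* (0.916), *Fam212b* (0.883) and *Dstn* (0.869), all with their highest mean in sphincter 1. *Homer1* was most like *Abracl* (0.866), *Msrb1* (0.855) and *Pygb* (0.814). Among the members, *Nr4a1* and *Nr4a2* had a correlation of 0.61, *Nr4a2* and *Nr4a3* of 0.61, *Nr4a1* and *Nr4a3* of 0.27 and *Npas4* and *Homer1* of 0.70. *Arc*, with 7 UMIs, was most like *Abcc8* (0.558), *Spock3* (0.529) and *Sfxn5* (0.514), from which nothing is read.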

How the data were processed

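Nuclei were profiled with 10x Genomics Chromium in 8 libraries. The authors used Cell Ranger 3.1.0 with mm10, counting exonic and intronic reads, and deposited raw UMI counts for each nucleus, a cell type for each nucleus, and the percent of mitochondrial transcripts per nucleus. The deposited nuclei had at least 500 genes and at most 1% mitochondrial transcripts, and 359 of them carry a doublet call of Scrublet and were kept. Nuclei of 1 cell type in a library were added up, and the sum was scaled to CPM. Libraries were grouped by the submitters' labels. The 3 conditions were fitted per cell type with edgeR 4.0.16 (TMM, filterByExpr, quasi-likelihood test, two-sided, Benjamini-Hochberg adjustment over all genes of a cell type) in R 4.3.3, without covariates. The step was run on counts simulated from its own model, which checks the code only. The simulation did not include the spread seen between the dilated libraries. Alternatives were DESeq2 1.42.0, no filter, a replicate or series block, leaving out doublets, libraries or, chosen after seeing the data, nuclei with a shared barcode. Intervals are exact and cover counting error only.

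The 6 genes and the lists were chosen with earlier results of these data known. Named genes were the 6 members, the 3 genes most like each in pattern, and per list the 5 genes with the largest change among those called in dilated dilator muscle or any called with constriction.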

Additional observations from a re-analysis of the deposited data

Results flagged for a closer look

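*Npas4* differed in direction between cell types in dilated irises. The ratio of its mean CPM in dilated to that in untreated libraries was 14.4 in dilator muscle, 3.68 in sphincter 2 and 24.1 in stroma 2, and 0.246 in sphincter 1. Every dilated library was above every untreated one in the first 3 cell types and below every one in sphincter 1. The constricted libraries overlapped with the dilated ones in dilator muscle and sphincter 2. They reached 1.66 and 14.4 CPM there, above the lower dilated library at 0.802 and 10.2 CPM. In stroma 2 and sphincter 1 the constricted and dilated libraries did not overlap. The difference between cell types was not tested. The values rest on 42, 13, 110 and 5 UMIs in the dilated libraries and on 3, 7, 4 and 35 UMIs in the untreated ones, and the ratio of pooled levels in dilator muscle had a 95% interval of 4.45 to 70.2 (exact, counting error only).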

How the results depend on the processing

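For dilated irises the count of called pairs was 7, and it was 6 by DESeq2 (without *Nr4a2* in sphincter 2), 8 with a replicate block (with *Nr4a3* in stroma 1), 10 with a series block (with *Nr4a3* in stroma 1 and *Nr4a2* and *Homer1* in stroma 2), 8 without doublets or without nuclei with a shared barcode, and 5 to 8 when 1 untreated or constricted library was left out. Without untreated replicate 3, *Nr4a1* and *Npas4* in stroma 2 were not called, and without untreated replicate 2 *Npas4* in stroma 2 was not. Without a filter on low counts more pairs were fitted and 13 were called. Among them were *Nr4a1* and *Nr4a3* in sphincter 2, *Nr4a1* in stroma 1 and *Npas4* in dilator muscle, which the filter had left out. *Nr4a3* in stroma 1 and *Homer1* in stroma 2 were called as well, although the main fit held them without a call. Leaving out a dilated library leaves 1 on that side, and its values stand in the report.

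For constricted irises 0 pairs were called under every alternative. The log2 fold change of *Nr4a1* in iris PE ranged from -1.12 to -0.69 with an adjusted p of 0.0692 to 1.00, and that of *Homer1* in stroma 2 from 0.27 to 0.52 with an adjusted p of 0.608 to 1. Uncalled log2 fold changes turned positive for *Nr4a2* (0.55) and *Nr4a1* (0.0784) in dilator muscle with the replicate block, and with the series block for *Nr4a2* (0.79) and *Nr4a1* (0.40) in dilator muscle and *Nr4a2* in sphincter 2 (0.15). When 1 library was left out, values spanned 0, from -0.22 to 0.000997 for *Nr4a2* in dilator muscle, from -0.81 to 0.0496 for *Nr4a2* in stroma 1, from -0.43 to 0.0139 for *Homer1* in sphincter 2, from -0.45 to 0.0644 in iris PE and from -0.29 to 0.27 in stroma 1, and from -3.38 to 1.61 for *Npas4* in stroma 2. The cause was not tested. Of the pairs from the related lists, 1 was called by DESeq2, 7 without a filter, 2 with the replicate block (*Junb* in iris PE and CBE) and 0 to 1 when 1 library was left out. All of these calls were lower in constricted irises. Those without a filter were *Junb* in iris PE, CBE and stroma 2, *Fos* in iris PE, *Sik1* in CBE, and *Btg2* and *Ryr3* in stroma 2.

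The libraries were not treated as paired by replicate number, since not every pair was above 0.1. Deviations of untreated and constricted dilator muscle from their group means had correlations of 0.187, 0.00599 and 0.307. Those of untreated and dilated were 0.172 and 0.133, and those of constricted and dilated 0.602 and -0.0123. Both values below 0.1 involved constricted replicate 2, which is alone in its series of library numbers. All other pairs lay within 1 series and were positive, in iris PE and stroma 2 as well. The libraries of a series were thus alike in part, and the main fit has no term for series. By number, the pair at 0.602 was replicate 1. Thinning to 1000 UMIs changed the share of dilator nuclei with *Nr4a1* from 14.1% to 4.33% and from 54.1% to 26.3%. Of the 18 genes most like a member, 8 were shared when Spearman replaced Pearson correlation. The depth limits *Arc*, *Npas4* and the small cell types most.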
